A study of Mus musculus with 6 samples.

Results

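The regions described here are peaks of H3K4me1, histone H3 carrying a single methyl group at lysine 4, in untreated mouse macrophages that had no listed peak of PU.1 or p300 nearby. They were chosen from the authors' peak lists. An H3K4me1 peak on chromosomes 1 to 19 or X was kept when no peak of the PU.1 or p300 lists, untreated or LPS, lay within 500 bp of either edge. Of 84743 H3K4me1 peaks, 26835 met this rule (31.7%, exact 95% binomial interval 31.4 to 32.0). The other H3K4me1 peaks served for comparison, 41939 (49.5%) with PU.1 but no p300 within 500 bp and 15969 (18.8%) with p300.

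Macrophages were grown from bone marrow of female Fvb mice and used on day 7 of differentiation. Cells were either untreated or given LPS, a glycolipid of the bacterial outer membrane, at 10 ng/ml for 2 h, and p300 and PU.1 were measured in both by sequencing the DNA bound in immunoprecipitates (fixation with 1% formaldehyde, 10 min). H3K4me1 and input, chromatin sequenced without precipitation, came from untreated cells. p300 had 2 biological replicates in each condition, and the other 4 libraries stood alone.

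H3K4me1 is laid down by the MLL3 and MLL4 methyltransferases and marks enhancers, both active ones and ones that are silent but accessible to later use, as well as the flanks of active promoters. PU.1, an ETS-family factor that recognises a purine-rich motif, binds most macrophage enhancers and is needed for their marking. p300 is an acetyltransferase that acetylates histone H3 at lysine 27 and is found where enhancers are active. A marked region without either protein may be held by other factors or lie beside a bound site, and H3K4me1 alone does not say which.

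The libraries held 5744811 to 7828655 aligned reads, of which 74.2% to 97.0% on the chromosomes used had a distinct position and strand. The replicates of p300 differed in enrichment. Over the H3K4me1 peaks with p300, read density relative to input after scaling by total reads was 0.883 and 2.45 in untreated replicates 1 and 2 and 1.09 and 2.07 in LPS replicates 1 and 2. Summed over whole peaks, replicate 1 was thus near input. A 200 bp window of 10 or more reads was still present at 134 of these peaks in untreated replicate 1 and 629 in LPS replicate 1, against 27 in input. The p300 peaks were called on merged replicates.

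The rule used the peak lists, so the H3K4me1 scores and the low counts of PU.1 and p300 reads below are descriptions. Most H3K4me1 peaks that failed the rule did so through PU.1. A PU.1 peak lay within 500 bp of 56176 peaks, and 1732 had a p300 peak without PU.1. At 5089 peaks the nearby PU.1 or p300 peak was in the LPS lists alone. The 500 bp limit was no natural break. The 1923 peaks just outside it, with a listed peak 401 to 500 bp away, had a median width of 541 bp and a median score of 87.0. The 1752 peaks just inside it, at up to 600 bp, had 543 bp and 86.0, and both groups had medians of 19 H3K4me1, 3 untreated PU.1, 3 LPS PU.1 and 3 input reads.

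The H3K4me1 peaks without a listed PU.1 or p300 peak were narrower and had lower scores than the others. Their median width was 528 bp, with the middle 80% between 305 and 1074 bp, against 679 bp at peaks with PU.1 alone and 895 bp at peaks with p300. The authors' score, 10 times the -log10 p-value of their caller, had a median of 83.6, against 119.9 and 201. They held a median of 17 H3K4me1 reads and 3 input reads. At peaks with PU.1 alone the medians were 26 and 4 reads, and at peaks with p300 they were 41 and 6.

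Relative to input the classes lay closer. With counts scaled by total reads and 1 read added, the log2 of H3K4me1 over input had a median of 2.45, against 2.49 at peaks with PU.1 alone and 2.69 at peaks with p300. The lower and upper quartiles of the regions were 1.99 and 2.99. Reads summed over each class were 6.72, 6.73 and 7.60 times input. The 3 classes overlapped widely in this ratio. With 1 library each of H3K4me1 and input, its spread between samples was not measured. In 3506 of the regions (13.1%) input had no read, and these had a median width of 334 bp.

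The share of H3K4me1 peaks without listed PU.1 or p300 went down from the weakest to the strongest peaks. With all H3K4me1 peaks cut into 10 equal groups by score, it was 49.0% (exact 95% interval 47.9 to 50.0) in the weakest group and 7.09% (6.55 to 7.66) in the strongest. The share with p300 went from 8.48% to 46.1%. The strongest group still held 601 regions without a listed peak, all with a score of 423 or more. A wider peak has more sequence in which the rule can find a listed peak. The part of width in these shares was not tested.

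**Figure D1:**
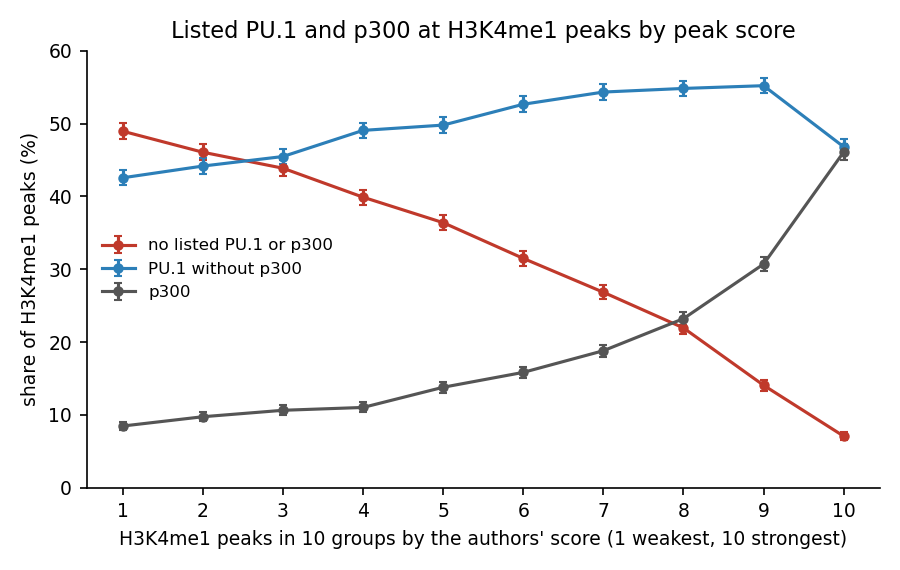
Share of H3K4me1 peaks in each class (vertical axis, %) in 10 equal groups ordered by the authors' H3K4me1 score (horizontal axis), with exact 95% binomial intervals. The class without listed PU.1 or p300 goes from 49.0% to 7.09% and the class with p300 from 8.48% to 46.1%.

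The region with the highest score, 2361.52, lay on chromosome 15 from 77663538 to 77667260, and its nearest listed peak was one of p300 558 bp away. It held 302 H3K4me1 reads against 20 input reads. PU.1 had 45 reads untreated and 36 after LPS. p300 had 39 and 30 reads in untreated cells (replicates 1 and 2), and after LPS it had 24 and 23. PU.1 and p300 reads thus outnumbered input reads in each library, with no more than 11 PU.1 reads in any 200 bp. The next in score lay on the same chromosome from 101807027 to 101809830, with 271 H3K4me1 and 20 input reads, 1964 bp from a PU.1 peak and 133887 bp from a p300 peak. The third, on chromosome 15 from 79930605 to 79934764, had 326 and 35 reads. The other two of the 5 highest were on chromosome 2 from 32743460 to 32748664 (352 and 39 reads) and on chromosome 17 from 27174524 to 27178392 (317 and 31 reads). These 5 lay 524 to 1964 bp from the nearest listed peak, in the range where most regions of the class lay.

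The widest region, on chromosome 4 from 94763771 to 94769502, spanned 5731 bp with 329 H3K4me1 and 43 input reads. It also held 80 untreated and 71 LPS PU.1 reads, with up to 24 and 22 of them inside a single 200 bp window. The other 4 of the 5 widest were 4509 to 5204 bp long, on chromosomes 2, 16, 7 and 11, and lay 851 to 2782 bp from a listed peak.

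By reads per kb the order was different. The 3 densest regions lay close together on chromosome 6, from 127661086 to 127661330, from 127661729 to 127662021 and from 127639770 to 127640001. They had 32, 36 and 26 H3K4me1 reads in 231 to 292 bp, which is 131, 123 and 113 reads per kb against a median of 33.6 over the class. Input had 0 reads at each of them, PU.1 had 0 or 1 read in each library and p300 had 0 to 2. The nearest listed peak, of p300, was 17433 to 39392 bp away. With 1 read added, the log2 of H3K4me1 over input was 5.03, 5.20 and 4.74, against the class median of 2.45. With 0 input reads these values depend on the read added. Next came chromosome 15 from 74756373 to 74758155 (196 H3K4me1 and 15 input reads, 1981 bp from a PU.1 peak) and chromosome 4 from 136067725 to 136068225 (53 and 3 reads, 593 bp from a PU.1 peak).

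Most regions lay near bound sites. The median distance to the nearest PU.1 or p300 peak was 1763 bp, with quartiles of 967 and 3408.5 bp. The nearest peak was PU.1 for 23278 regions (86.7%) and p300 for 3543 (13.2%). The median distance to PU.1 was 1836 bp and to p300 13344 bp. The PU.1 lists held 73500 and 74365 peaks and the p300 lists 12421 and 12237, so a PU.1 peak is also the likelier neighbour by number.

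Sorted by that distance, 7082 regions (26.4%) lay up to 1000 bp from a listed peak, 7797 (29.1%) between 1000 and 2000 bp, 7876 (29.3%) between 2000 and 5000 bp, 2609 (9.72%) between 5000 and 10000 bp and 1471 (5.48%) farther. Beyond 50 kb were 48 regions. The farthest, on chromosome 3 from 38784063 to 38784503, was 212903 bp from a PU.1 peak and had 12 H3K4me1 and 0 input reads, and p300 had 1 or 2 reads in each library. The next 4, on chromosomes 1, 8, 15 and 18, were 113529 to 145015 bp away with 7 to 24 H3K4me1 reads. The scores of the 5 ran from 60.4 to 121, so the most remote regions were among the weaker or middling peaks.

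H3K4me1 peaks tended to sit in groups, and many of these regions were part of a group that also held a bound peak. Another H3K4me1 peak lay within 1 kb of 61.7% of the regions (exact 95% interval 61.1 to 62.3), against 60.6% of peaks with PU.1 alone and 79.6% of peaks with p300. When H3K4me1 peaks were joined over gaps of up to 2 kb, 15144 regions (56.4%, 55.8 to 57.0) shared a group with a peak that had PU.1 or p300. Another 7282 (27.1%) stood alone, and 4409 (16.4%) were in 1924 groups made up of such regions. The share in a group with a bound peak depended on the gap, at 41.0% for 1 kb and 74.6% for 5 kb. Another H3K4me1 peak lay within 2 kb of 19553 regions, the 15144 included. Of all H3K4me1 peaks, 49.5% had PU.1 alone and 18.8% had p300, so a bound neighbour is also likely by number.

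The mean profile around the peak centre showed the same surroundings. H3K4me1 was 8.01 times input just right of the centre, 3.77 at 450 bp and 3.08 near 3 kb, after scaling by total reads. At peaks with PU.1 alone it was 7.57, 4.36 and 2.33. Near 3 kb the mark thus stood higher around the regions than around peaks with PU.1 alone. PU.1 of untreated cells was 1.51 times input at the centre of the regions, 1.13 at 450 bp and 2.96 near 2 kb, so it was higher 2 kb away than inside. The rule allows no listed peak within 500 bp of an edge, so the low PU.1 beside the centre is partly fixed by it.

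**Figure D2:**
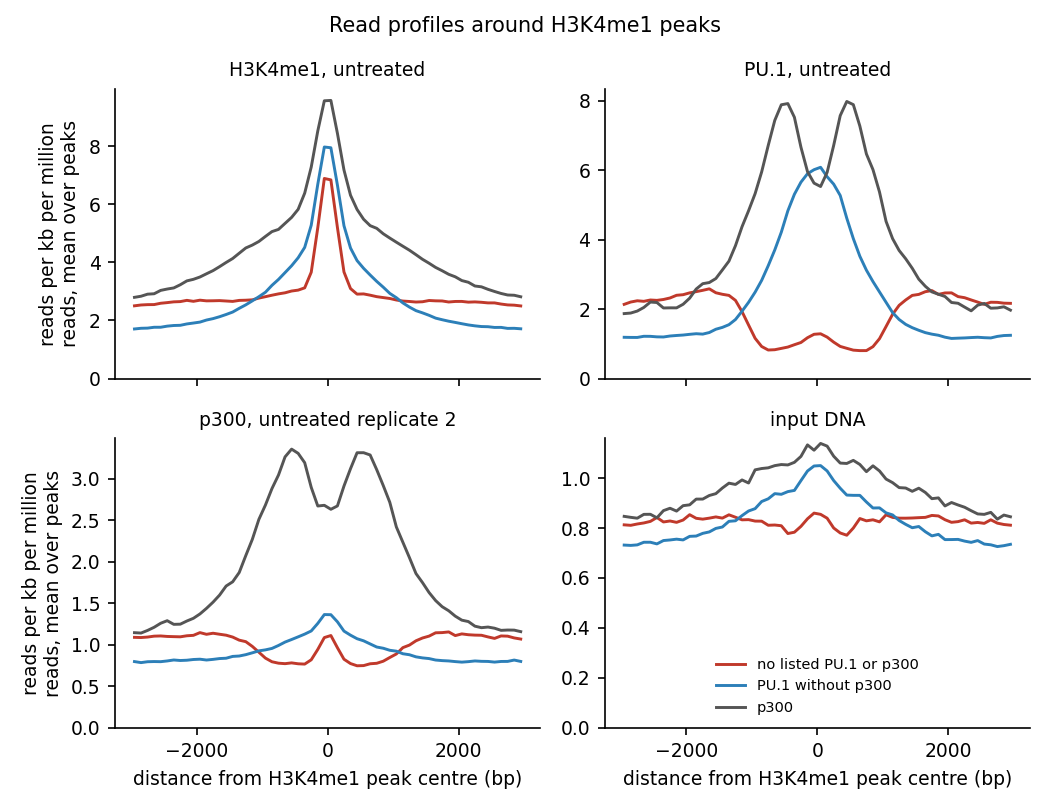
Mean read density per peak, scaled by total reads (vertical axes) against distance from the centre of the H3K4me1 peak in bp (horizontal axes), for the 3 classes of H3K4me1 peaks in 4 libraries. At peaks without a listed PU.1 or p300 peak, untreated PU.1 has a small central rise to 1.29, 0.870 at 450 bp and 2.46 near 2 kb.

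Although no PU.1 peak was listed, PU.1 reads were denser in the regions than in windows 5 kb away without any listed peak, H3K4me1 included. They were less dense than in the immediate surroundings at 2 kb, which can hold listed peaks. Untreated PU.1 reads summed to 125883 over the 26835 regions, or 7.43 per kb, and LPS PU.1 reads to 125611, or 7.41 per kb. Scaled by total reads this was 1.39 and 1.33 times input. For a local measure, windows of the same width were placed 5 kb to each side. They were kept where no peak of any list, H3K4me1 included, lay within 500 bp. The measure thus sets H3K4me1 peaks against sequence without a listed H3K4me1 peak. In these 30507 windows untreated PU.1 had 1.82 reads per kb and LPS PU.1 1.95. Input itself was 1.48 times higher in the regions than in the windows, and relative to input PU.1 was 2.75 and 2.57 times its flanks. At H3K4me1 peaks with PU.1 alone these ratios were 10.1 and 8.74.

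p300 was close to input in replicate 1 and slightly above it in replicate 2. Relative to input and to the same flanks, p300 in the regions was 0.971 in untreated replicate 1, 1.24 in untreated replicate 2, 1.03 in LPS replicate 1 and 1.17 in LPS replicate 2. H3K4me1 peaks with PU.1 alone had 0.824, 1.28, 0.902 and 1.12, and peaks with p300 had 0.940, 2.56, 1.19 and 2.14. Untreated replicate 1 was thus no higher at peaks with p300 than in the regions. Its value cannot show whether p300 was absent from the regions. Replicate 2 set peaks with p300 apart from the regions in both conditions. In each condition the replicates differed by more than the conditions did.

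**Figure D3:**
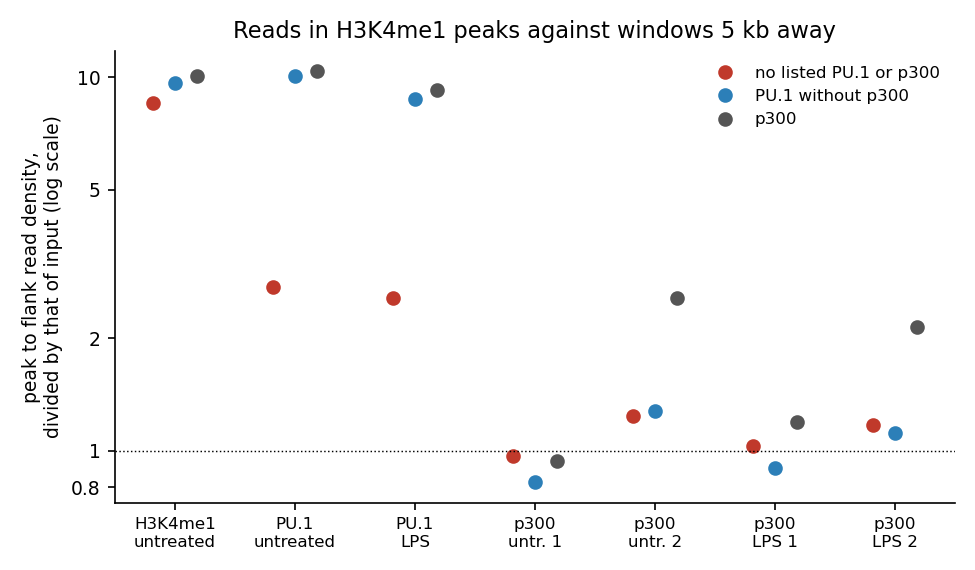
Read density in H3K4me1 peaks divided by that in windows 5 kb away, relative to the same ratio in input (vertical axis, log scale), for each library (horizontal axis) and the 3 classes of peaks. The windows have no peak of any list, H3K4me1 included, within 500 bp. Points are single libraries, so no error is shown, and the dotted line marks the level of input. The regions without a listed peak stand at 2.75 and 2.57 for PU.1 and between 0.971 and 1.24 for p300.

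Divided by input, the PU.1 level against the flanks showed no steady fall with distance from the listed peaks. Relative to input and flanks, untreated PU.1 was 2.71 in regions up to 1000 bp from a listed peak, 2.95 at up to 2000 bp, 2.59 at up to 5000 bp, 2.55 at up to 10000 bp and 2.76 beyond. After LPS the values were 2.48, 2.71, 2.46, 2.44 and 2.79. The flank windows differ between these groups. Input itself was 1.55 times its flanks in the nearest group and 1.34 in the farthest. Not divided by input, untreated PU.1 was 4.19, 4.33, 3.71, 3.40 and 3.71 times its flanks from the nearest to the farthest group. LPS PU.1 was 3.83, 3.99, 3.53, 3.25 and 3.75 times its flanks. Relative to input and flanks, p300 in replicate 2 was higher in the farthest group than in the nearest. It went from 1.17 to 1.47 untreated and from 1.099 to 1.38 after LPS. In replicate 1 it went from 0.925 to 1.15 and from 0.986 to 1.22. Without division by input these rises were smaller. In replicate 2 they were from 1.82 to 1.98 untreated and from 1.70 to 1.85 after LPS. In replicate 1 they were from 1.43 to 1.55 and from 1.52 to 1.64. H3K4me1 relative to input and flanks was 8.32, 7.93, 8.16, 9.88 and 14.5 from the nearest to the farthest group. Scaled by total reads it was 6.59 in the nearest and 7.74 in the farthest. The farthest group had 1471 regions and 2957 input reads.

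The reads also went against the name of this class for a minority of regions. These held PU.1 piles in the range of listed PU.1 peaks, mostly below the median of those. As a measure of pile height, the densest 200 bp window in each region was taken. Its median was 2 reads in either PU.1 library and 2 in input, so most regions had no pile. In untreated cells 1634 regions (6.09%, exact 95% interval 5.81 to 6.38) had 10 or more PU.1 reads in a window, and after LPS 1577 (5.88%, 5.60 to 6.16). Input reached 10 reads in 2 regions, and p300 did so in 1 and 158 regions without LPS (replicates 1 and 2) and in 1 and 94 with it. Of the listed PU.1 peaks, 82.2% untreated and 81.6% after LPS had 10 or more. In both lists the median was 20, the 10th percentile 8 and the lowest value 4. Of the regions, 520 untreated and 497 after LPS reached 15.

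Many of these piles recurred in the other PU.1 library. Of the 1634 regions with 10 or more untreated reads in a window, 924 (56.5%) also had 10 or more after LPS, and 131 had under 5. In total, 2287 regions (8.52%) had such a window in either library. They made up 13.8% of the width of the class and held 32.4% of its untreated and 31.7% of its LPS PU.1 reads. A high share follows from picking these regions by their PU.1 reads, as do lower values in the rest. In the other 24548 regions PU.1 was 1.13 (untreated) and 1.095 (LPS) times input when scaled by total reads. Against the windows 5 kb away and relative to input it was 2.25 and 2.13, so the size of this difference depends on the scaling.

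**Figure D4:**
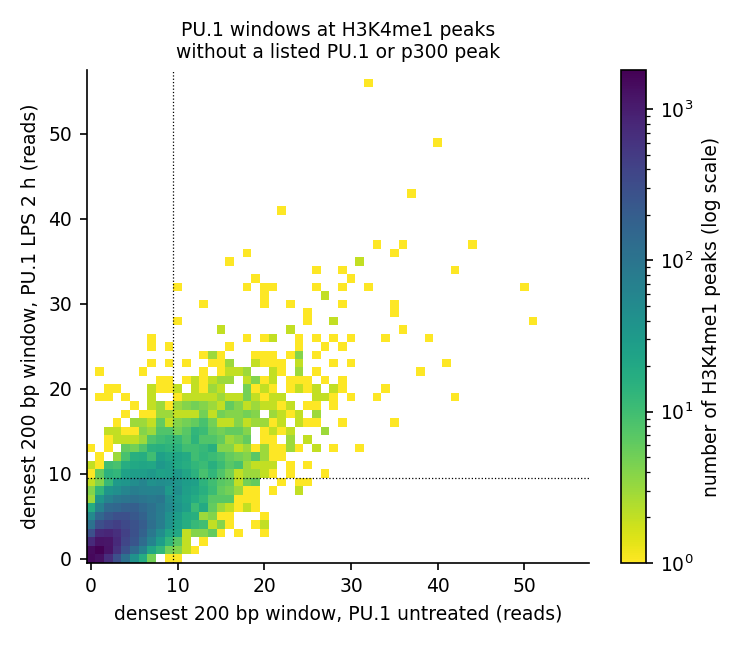
Densest 200 bp window of PU.1 reads in untreated (horizontal axis) and LPS cells (vertical axis) for the 26835 regions, with colour giving the number of regions on a log scale. Dotted lines mark 10 reads. In the upper right field lie the 924 regions at or above 10 in both libraries.

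The piles were found near listed peaks. Windows of 10 or more untreated PU.1 reads were present in 7.13% of the 22755 regions within 5000 bp of a listed PU.1 or p300 peak (exact 95% interval 6.80 to 7.47) and in 12 of 4080 beyond (0.294%, 0.152 to 0.513). After LPS the shares were 6.89% and 0.245%. By steps of 500 bp, the untreated share was 8.81% in the step ending at 1500 bp, 4.25% in that ending at 4000 bp, 2.23% at 4500 bp and 0.158% at 5000 bp. Windows of 15 or more reads, in 520 regions untreated and 497 after LPS, lay no farther than 4276 and 4080 bp from a listed peak. Regions beyond 5000 bp were narrower, with a median of 444.5 bp against 544 bp, and had a median of 2 untreated PU.1 reads against 3. The part of width or of the authors' peak calling in this was not tested. The peak numbers in each list run without a gap, which does not show whether peaks were dropped before numbering. The lowest scores in the lists were 50.0 to 50.01.

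**Figure D5:**
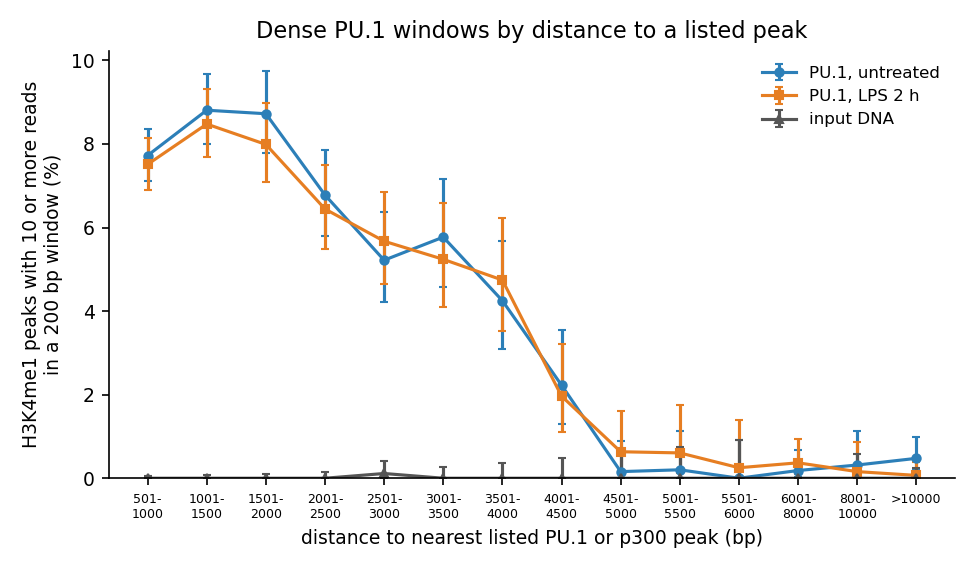
Share of the regions with 10 or more reads in a 200 bp window (vertical axis, %) by distance to the nearest listed PU.1 or p300 peak in bp (horizontal axis, bins of unequal width), for both PU.1 libraries and input, with exact 95% binomial intervals. The PU.1 shares are 7.72% and 7.51% in the nearest bin and fall below 1% beyond 4500 bp, while input stays near 0.

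The 5 regions with the densest PU.1 windows were picked after their values were seen. On chromosome 3 from 97732927 to 97734358 PU.1 had 65 reads untreated and 87 after LPS, with 32 and 56 in the densest window, while input had 15 reads and at most 6 in a window. The listed peak nearest to it was one of p300 1012 bp away. On chromosome 2 from 152917717 to 152919148 there were 74 and 47 PU.1 reads and 5 input reads, with 127 reads of H3K4me1. The others lay on chromosomes 15, 6 and 19, with 52 to 72 untreated and 35 to 68 LPS reads. In all 5, PU.1 reads outnumbered input reads in both libraries, which picking them by dense PU.1 windows makes likely. Their nearest listed peak was 671 to 1050 bp away.

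By contrast, 18104 regions (67.5%, exact 95% interval 66.9 to 68.0) had no window above 4 reads in either PU.1 library, and 1552 (5.78%) had no PU.1 read at all. For p300, windows of 15 or more reads were rare. With replicates pooled, 54 regions untreated (0.201%) and 34 after LPS (0.127%) had a window of 15 or more p300 reads, against 55.8% and 51.7% of the listed p300 peaks. This limit was near the median of listed p300 peaks, 16 untreated and 15 after LPS. The limit of 10 reads for PU.1 lay below the median of 20 of its listed peaks. The shares for PU.1 and p300 thus rest on unlike limits. p300 reads were absent from all 4 libraries at 138 regions.

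The next question was whether LPS brought p300 to these regions within 2 h. All H3K4me1 peaks with at least 10 p300 reads were compared between conditions with limma voom, 2 replicates in each, and p-values were adjusted over all 60222 peaks. None of the 15390 regions tested passed an adjusted p of 0.05, where 28 of all peaks (0.0465%) were called higher and 0 (0.0%) lower. The smallest adjusted p by limma in the class was 0.623. An unadjusted p under 0.05 was found at 278 regions, 193 of them higher and 85 lower, or 1.81% against 3.87% of all peaks. limma-trend called 0 regions and 44 of all peaks, with 355 regions at an unadjusted p under 0.05. The 28 calls over all peaks were 0 when p300 was scaled by total reads or by background bins, and 0, 0, 0 and 4 with 1 library left out (4 without untreated replicate 1). A count of 0 regions under those settings says nothing about the class. The rule allowed no listed p300 peak in either condition, so nothing is read from these counts. Regions under 10 reads were not tested.

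The size of the p300 difference in a region was known poorly. The median log2 fold change, LPS against untreated, was 0.03 over the regions tested and 0.01 over all peaks. The quartiles were -0.46 and 0.56, and the median SE was 0.76 in this fit, which had no replicate term. A 2-fold change was thus little more than the error of a typical region in this fit. Summed over all 26835 regions and taken as the log2 ratio to input, p300 was 0.02 ± 0.25 untreated and 0.01 ± 0.17 after LPS (mean ± SD, n = 2 each). The difference was -0.01 (exact permutation test, two-sided, p = 1). The smallest p that 2 against 2 allows is 0.333, so this test could not call a difference of any size. The rule had also taken out peaks near a listed p300 peak of either condition, so nothing is read from this p. The sign of the difference turned without untreated replicate 2 (0.17) and without LPS replicate 1 (0.11).

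With the replicate number as a term, limma called 2 regions, both higher, against 0.835% of all H3K4me1 peaks in either direction. They are named because they were so few, after their values were seen. On chromosome 3 from 135350642 to 135352855 p300 had 9 and 11 reads untreated and 21 and 31 after LPS, and PU.1 went from 19 to 54 reads. On chromosome 1 from 40415024 to 40416752 p300 had 7 and 9 reads untreated and 20 and 23 after LPS, and PU.1 went from 6 to 23. In both regions each LPS library held more p300 reads than each untreated one, which picking them by this call makes likely. Their adjusted p by limma without the term was 0.826 and 0.758.

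PU.1 had 1 library per condition, so its change is given as a ratio of reads scaled by total reads, with an exact 95% interval for counting error. Of the regions, 3255 had 20 or more PU.1 reads over both libraries. A ratio beyond 2-fold higher after LPS was found at 173 of them (5.31%, against 3.9% of all H3K4me1 peaks with 20 reads), and beyond 2-fold lower at 263 (8.08%, against 5.42%). The regions had fewer reads, with a median of 28 against 60 over all peaks, and the part of read number in these shares was not tested. Peaks with p300 had a median of 84 reads and 5.85% beyond 2-fold higher. The whole interval lay beyond 2-fold higher at 7 of the 3255 regions and lower at 2. Over all 38637 peaks with 20 or more reads it did so at 99 (0.256%) and 32 (0.0828%). The regions thus showed no excess by this measure. The median ratio was 0.961, against 0.911 over all peaks.

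The largest rise was on chromosome 3 from 107578865 to 107579497, where PU.1 went from 1 to 26 reads, a ratio of 24.98 (4.10 to 1024). Of the 26 reads, 22 lay in a single 200 bp window. p300 there had 5 and 4 reads untreated and 7 and 10 after LPS. On chromosome 18 from 46737155 to 46737472 PU.1 went from 1 to 19 reads (ratio 18.3, 2.90 to 758), and on chromosome 1 from 154373279 to 154374064 from 2 to 24 (11.5, 2.86 to 101). At the latter p300 had 6 and 6 reads untreated and 5 and 21 after LPS. Chromosome 4 from 144556486 to 144557208 had 2 and 23 PU.1 reads and chromosome 14 from 28160389 to 28160680 had 2 and 19. These 5 were within 812 to 2183 bp of a listed peak, and each had 15 to 22 LPS reads in a single window. By the rule, no region of the class has a listed PU.1 peak within 500 bp.

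The largest fall was on chromosome 2 from 129723375 to 129724084, from 24 to 4 reads (ratio 0.160, 0.0404 to 0.466), with 20 untreated and 3 LPS reads in the densest window. On chromosome 7 from 142780219 to 142781066 PU.1 went from 34 to 8 reads (0.226, 0.0904 to 0.498). The other 3 were on chromosome 10 from 59743165 to 59744292 (18 and 4 reads), chromosome 11 from 49837648 to 49838372 (17 and 4) and chromosome 2 from 129006197 to 129006610 (21 and 5). Their ratios were 0.214 (0.0526 to 0.648), 0.226 (0.0553 to 0.693) and 0.229 (0.0674 to 0.623). Each ratio compares 2 libraries, not conditions.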

How the data were processed

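Chromatin immunoprecipitation reads of 8 libraries and 5 peak lists were used. The reads were deposited as aligned positions, 36 bp long, on build mm9 per the submitters' processing notes; aligner, multiple hits and MACS version are not given in the sources used here. The authors' MACS peaks carry a score of 10 times the -log10 p-value, per the deposited column description and file headers; p300 peaks come from merged replicates.

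On chromosomes 1 to 19 and X, a single read per position and strand was kept and placed 100 bp downstream of its 5' end. Coordinates are printed as in the files. Distance is the gap between edges. Median-of-ratios scaling over H3K4me1 peaks was used for p300, tested with limma 3.58.1 in R 4.3.3 (at least 10 reads, treatment as the single term, Benjamini-Hochberg); code was tested on simulated data. Intervals cover counting error only.

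The regions, gene lists and tests were chosen with earlier results of these data known. Named regions were the 5 highest by score, width, distance and H3K4me1 reads per kb, the 5 largest PU.1 ratios each way with at least 20 reads, and p300 calls. The 200 bp windows and the windows 5 kb away were added after seeing the data. The genes, motifs and sequences planned for these regions were not used here, since the tables at hand are on another build.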

Additional observations from a re-analysis of the deposited data

How the results depend on the processing

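The class held 26835 regions at 500 bp, 11956 at 2000 bp and 10289 with an H3K4me1 score of 100 or more. The other 5 definitions tried stayed within 1.5 times, from 19753 at 1000 bp to 40201 with PU.1 and p300 scores of at least 100. The median log2 of H3K4me1 over input, 2.45, was 2.53 with all reads kept, 2.41 with a 50 bp shift and 2.64 with 0.5 reads added. The p300 count of 0 was 2 with a replicate block and 0 under the other 11 alternatives, 4 of which left out a library, and in 5 of the 11 (both other scalings and 3 with a library left out) no peak of any class was called; library numbers shared a deviation (Pearson's r = 0.315 across 14587 peaks), and the labels do not say what they mark. PU.1 calls higher and lower, 173 and 263, were 871 and 1053 with at least 10 reads, 15 and 26 with at least 40, and 309 and 456 with all reads kept. The p300 difference summed over the regions was 0.000211 at 2000 bp and 0.00259 against windows 5 kb away, and -0.18 to 0.17 with a library left out. PU.1 over input, 1.39 untreated and 1.33 after LPS, was 1.29 and 1.245 with all reads, 1.35 and 1.31 at 2000 bp, 3.79 and 3.31 by background bins and 2.75 and 2.57 against windows 5 kb away (the last pair of scalings added after seeing the data). The share in a group with a bound peak, 56.4%, was 41.0% for gaps up to 1 kb and 74.6% up to 5 kb. Windows of 8 and 15 untreated PU.1 reads gave 2711 and 520 regions in place of 1634, and 403 were left at 2000 bp; these were also added after seeing the data. Without untreated replicate 2 and without LPS replicate 1 the p300 difference turned positive. The causes were not tested. Depth limits each region: the class had a median of 2 or 3 reads per p300 library and 3 per PU.1 library.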

Other observations

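Joined over gaps of up to 2 kb, 23 of the 1924 groups held 5 or more regions. The largest had 9 regions over 13102 bp on chromosome 2 from 131953709 to 131966811, with 269 H3K4me1 and 35 input reads, and with 55 untreated and 57 LPS PU.1 reads in the regions. A group of 7 on chromosome 11 from 118943600 to 118952828 had 257 H3K4me1 and 31 input reads and 54 and 62 PU.1 reads. A group of 7 on chromosome 8 from 26714595 to 26722891 had 106 H3K4me1 and 13 input reads but 8 and 12 PU.1 reads.

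The share of H3K4me1 peaks without listed PU.1 or p300 lay between 29.5% on chromosome 16 and 35.8% on X (exact 95% interval 33.2 to 38.5 on X). Over all autosomes it was 31.6%. H3K4me1 peaks on X also had a lower median score, 82.7 against 112, and lower input density, 4.72 against 6.60 reads per kb, and the part of these in the share was not tested.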
